A study of Mus musculus with 12 samples.

Results

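The genes described here carry out glycolysis, move glucose and lactate across the cell membrane, steer pyruvate, and sense or answer low oxygen. They were chosen by name, 34 genes in all, and each was read from its brightest probe set, by the mean of all 12 arrays. Of the 34, 32 were measured among 18194 genes tested. Gpi1 and Eno1, the glucose phosphate isomerase and the common enolase, have no probe set paired with them alone and were not analysed here. The measured genes are 22 of glucose uptake, glycolysis, lactate and pyruvate, and 10 of the hypoxia pathway and its targets.

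Glycolysis splits glucose into pyruvate, and its enzymes come as isozymes that are used in different tissues. The hypoxia-inducible factors (HIF) are made of an alpha subunit that prolyl hydroxylases mark for destruction while oxygen is present and a constant partner, and they bind a short DNA element near genes for glucose uptake, glycolysis and lactate export. In lung, HIF-2 alpha is known for its high level in endothelium and type 2 cells, and macrophages are known to turn to glycolysis when they are activated.

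Total RNA of whole lung from C57BL/6 mice was measured, 1 array per sample, 3 per group in 4 groups. Wild type mice and mice in which FIZZ2 was knocked out were each given either saline or bleomycin into the trachea, and the lungs were flushed with buffer and taken at day 21. Bleomycin, an antitumour drug that breaks DNA, is given to mice to injure and scar the lung; FIZZ2 is the secreted protein RELM-beta, encoded by Retnlb. The labels do not give the age or sex of the mice, how the knockout was made, or whether the replicates of a group were separate animals, so the p-values measure only the spread between these samples.

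Each value is a log2 signal, on which a difference of 1 is a 2-fold change, and levels of different genes on this scale are not comparable. Array medians lay between 5.58 and 5.68, and arrays of 1 group correlated at 0.993 to 0.997 over genes (12 pairs). Of the defining lung markers, Sftpc, a surfactant gene of alveolar type 2 cells, read between 13.98 and 14.24, and Ager, of alveolar type 1 cells, between 13.61 and 13.98 over the 12 arrays. Retnlb itself was dim, with group means of 3.69, 3.98, 3.69 and 3.63 in wild type saline, wild type bleomycin, knockout saline and knockout bleomycin lungs, so it does not check the genotype labels. In whole-lung RNA, fewer cells of a type and less RNA per cell cannot be told apart.

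Bleomycin changed 18 of the 32 genes in wild type lung and 4 of them in knockout lung. A call here means an adjusted p under 0.05 in the limma fit, with Benjamini-Hochberg adjustment over the whole table, and each difference is given ± its SE from that fit, with 3 arrays per group. Of the 32 genes, 13 rose, 5 fell and 14 did not pass, that is 56.2% called, against 27.7% of all genes tested (13.3% higher and 14.4% lower). The count of falls moved by over 1.5 times in some alternatives: with probe sets averaged per gene 16 rose and 3 fell, and 3 fell without wild type saline replicate 1 (13 rose), wild type saline replicate 2 (14 rose) or wild type bleomycin replicate 1 (10 rose), or with the 2 wild type groups fitted alone (11 rose). The median log2 difference of the 32 genes was 0.19, against -0.04 over all genes. Arrays did not overlap between the groups in 22 of the 32 genes, against 40.0% of all genes. In 3 genes the change reached 2-fold, up in Ankrd37 and Ndrg1 and down in Ldhb. In knockout lung 4 of the 32 genes were called, against 3.26% of all genes: Aldoc, Ldha and Ankrd37 rose (1.98% of all genes did) and Slc2a3 fell (1.29% did). With array medians subtracted, 75.5% in place of 60.6% of all called genes were higher there, and the counts of the 32 genes did not move. Arrays did not overlap in 13 of the 32 genes, against 27.0% of all. The median there was 0.02, against 0.01 over all genes.

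**Figure D1:**
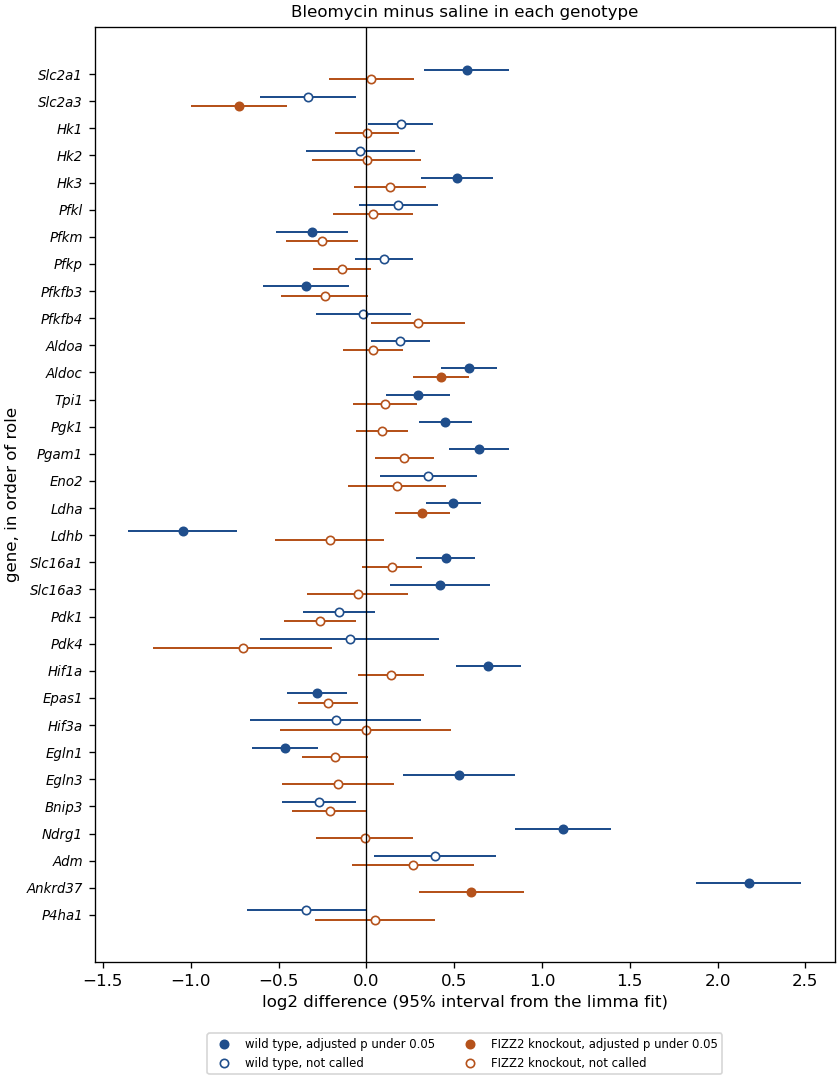
Log2 difference between bleomycin and saline lungs (horizontal axis) for each of the 32 genes in order of role (vertical axis), in wild type and in knockout mice. Points are limma estimates with 95% intervals over 3 arrays per group, and filled points have an adjusted p under 0.05. In wild type lung 18 points are filled, in knockout lung 4, with Ankrd37 the farthest to the right in both.

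The genes that moved can be laid beside the DNA in front of them. The core of the hypoxia response element is ACGTG or GCGTG, and these letters were searched on both strands, so that the reverse reads CACGT or CACGC and a palindrome such as CACGTG is found at overlapping positions. RefSeq promoters (GRCm38.p6) matched 29 of the 32 measured genes, all but Slc2a3, Epas1 and Ndrg1. In the 250 bases upstream of a start, 27 of 29 genes (93.1%) hold the core, against 53.6% of the 14453 tested genes with a promoter. The 29 genes are also somewhat richer in G and C, with a median of 60.4% per start against 57.6%, and 7 of the 29 have several starts in the table. Per start, 84.6% of 39 hold it, against 48.9% of 18110. The share did not separate the genes by their change in wild type lung: 11 of 12 that rose, 4 of 4 that fell and 12 of 13 that were not called hold it. A match of letters is a description and not a binding site.

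The upstream sequences of 5 genes are shown to place the core beside the responses, in the order of a glucose transporter, 2 enzymes of lower glycolysis, a HIF prolyl hydroxylase and, last, the lactate dehydrogenase that fell. Each is 250 bases, 5′ to 3′ on the strand of its gene and ending just before the start, with the core in capitals. They lie at chr4:119108495-119108744 (plus strand), chrX:106186850-106187099 (plus), chr19:41911621-41911870 (plus), chr12:54203875-54204124 (minus) and chr6:142507958-142508207 (minus).
Slc2a1: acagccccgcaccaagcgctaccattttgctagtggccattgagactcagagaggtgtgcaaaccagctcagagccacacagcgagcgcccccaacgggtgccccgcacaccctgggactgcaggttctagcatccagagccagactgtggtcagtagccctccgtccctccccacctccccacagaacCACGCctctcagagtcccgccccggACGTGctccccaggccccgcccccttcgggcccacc
Pgk1: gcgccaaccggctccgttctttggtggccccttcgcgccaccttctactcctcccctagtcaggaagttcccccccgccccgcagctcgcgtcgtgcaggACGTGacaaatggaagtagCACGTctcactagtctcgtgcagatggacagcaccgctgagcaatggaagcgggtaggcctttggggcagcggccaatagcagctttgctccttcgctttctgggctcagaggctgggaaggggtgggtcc
Pgam1: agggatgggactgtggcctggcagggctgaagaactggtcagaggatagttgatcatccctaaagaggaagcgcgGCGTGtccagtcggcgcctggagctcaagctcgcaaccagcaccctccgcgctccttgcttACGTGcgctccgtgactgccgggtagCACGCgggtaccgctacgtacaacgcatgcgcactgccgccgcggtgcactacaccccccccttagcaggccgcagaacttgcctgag
Egln3: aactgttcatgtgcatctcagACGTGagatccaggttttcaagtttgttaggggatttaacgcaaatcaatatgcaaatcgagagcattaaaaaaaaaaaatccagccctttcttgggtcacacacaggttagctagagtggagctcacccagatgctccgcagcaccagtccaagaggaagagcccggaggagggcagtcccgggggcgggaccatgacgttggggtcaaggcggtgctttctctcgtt
Ldhb: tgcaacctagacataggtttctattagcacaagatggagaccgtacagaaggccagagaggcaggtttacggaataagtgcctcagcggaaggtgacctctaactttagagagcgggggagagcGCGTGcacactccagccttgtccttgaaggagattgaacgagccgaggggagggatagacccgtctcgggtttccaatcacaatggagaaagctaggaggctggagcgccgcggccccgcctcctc
Slc2a1 and Pgk1 carry 2 positions each, Pgam1 carries 3, and Egln3 and Ldhb carry 1 each. Ankrd37, with the largest rise among the 32 genes, has 4 positions in its window, and Tpi1, which rose, has none in its window.

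Of the glucose carriers, Slc2a1 rose in wild type lung and Slc2a3 fell in knockout lung. Slc2a1 encodes GLUT1, the carrier for basal glucose uptake that HIF is known to induce. It read 7.68, 7.54 and 7.28 on the wild type saline arrays, 8.28, 7.996 and 7.94 on wild type bleomycin, 7.53, 7.73 and 7.63 on knockout saline, and 7.64, 7.68 and 7.65 on knockout bleomycin. Every wild type bleomycin array was above all 9 other arrays. Slc2a1 rose 1.49-fold in wild type lung (log2 difference 0.57 ± 0.11, adjusted p = 0.00198) and had 0.03 ± 0.11 in knockout lung (adjusted p = 0.933). The difference between the responses, knockout minus wild type, was -0.55 ± 0.16 and did not pass (adjusted p = 0.0660). All 3 of its probe sets were called higher in wild type lung. In knockout lung 1 of the 3 was above 0 and 0 were called. For the difference between the responses all 3 were below 0, and 1 was called lower over all probe sets.

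Slc2a3 encodes GLUT3, a carrier of high affinity used by neurons and white blood cells. It read 8.29, 8.24 and 7.93 on the wild type saline arrays, 7.87, 7.71 and 7.87 on wild type bleomycin, 8.94, 8.54 and 8.83 on knockout saline, and 8.19, 8.10 and 7.84 on knockout bleomycin. Knockout saline arrays were the highest of the 4 groups and overlapped with none of them. Slc2a3 fell with bleomycin to 0.605 of its saline level in knockout lung (log2 difference -0.72 ± 0.13, adjusted p = 0.00948). All 4 of its probe sets were below 0 there, and 1 was called lower over all probe sets. In wild type lung the difference was -0.33 ± 0.13 (adjusted p = 0.0696), and the difference between the responses was -0.39 ± 0.18 (adjusted p = 0.228). After saline the knockout exceeded the wild type by 0.62 ± 0.13, which did not pass (adjusted p = 0.0599). The list of 9 measured neutrophil genes was also highest on knockout saline arrays, with a mean between 7.85 and 8.42. The mean lay between 7.20 and 7.36 on wild type saline, 6.83 and 7.10 on wild type bleomycin, and 7.21 and 7.41 on knockout bleomycin arrays. Of these 9 genes 5 were higher in the knockout than in the wild type after saline. With bleomycin 4 of the 9 fell in the knockout. In wild type lung, where Slc2a3 was not called, 5 of the 9 fell and 1 rose. Their part in the Slc2a3 result was not tested.

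Of 3 hexokinases, which trap glucose by phosphorylating it, Hk3 rose in wild type lung and Hk1 and Hk2 were not called. Hk3, the isozyme best known from white blood cells, read 6.38, 6.56 and 6.54 on the wild type saline arrays, 7.11, 6.93 and 7.004 on wild type bleomycin, 6.68, 6.62 and 6.84 on knockout saline, and 6.70, 6.96 and 6.89 on knockout bleomycin. Wild type bleomycin and saline arrays did not overlap. Hk3 rose 1.43-fold in wild type lung (0.52 ± 0.09, adjusted p = 0.00120), with 0.14 ± 0.09 in knockout lung (adjusted p = 0.499) and -0.38 ± 0.13 between the responses (adjusted p = 0.116). Hk2, the inducible isozyme of muscle and tumours, read 8.46, 8.85 and 8.18 on the wild type saline arrays, 8.47, 8.55 and 8.37 on wild type bleomycin, 8.18, 8.35 and 8.44 on knockout saline, and 8.50, 8.22 and 8.25 on knockout bleomycin. The groups of Hk2 overlapped, and its differences were -0.04 in wild type (95% interval -0.35 to 0.28, adjusted p = 0.882) and 0.00 in knockout lung (95% interval -0.31 to 0.31, adjusted p = 0.996). Hk1, the widespread isozyme, ranged from 9.17 to 9.55 over the 12 arrays, with differences of 0.20 and 0.00 (adjusted p = 0.110 and 0.990).

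At the next control point, phosphofructokinase, Pfkm fell in wild type lung and the other isozymes were not called. Pfkm, the muscle isozyme, read 8.17, 8.46 and 8.28 on the wild type saline arrays, 8.08, 8.02 and 7.89 on wild type bleomycin, 8.31, 8.33 and 8.50 on knockout saline, and 8.10, 8.05 and 8.23 on knockout bleomycin. Its wild type bleomycin arrays lay below its wild type saline arrays. Pfkm was called lower in wild type lung (log2 difference -0.31 ± 0.09, adjusted p = 0.0271) and had -0.25 ± 0.09 in knockout lung (adjusted p = 0.172). Without wild type saline replicate 2 or wild type bleomycin replicate 2 or 3 its call was lost (adjusted p = 0.0976, 0.0519 and 0.107). Pfkl, of liver, and Pfkp, of platelets, ranged from 8.75 to 9.30 and from 8.75 to 9.01 and were not called, with 0.18 and 0.10 in wild type (adjusted p = 0.221 and 0.357) and 0.04 and -0.14 in knockout lung (adjusted p = 0.893 and 0.370).

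Pfkfb3 makes fructose 2,6-bisphosphate, the activator of phosphofructokinase, and is a known HIF target. It read 8.68, 8.55 and 8.50 on the wild type saline arrays, 8.06, 8.29 and 8.35 on wild type bleomycin, 8.52, 8.55 and 8.47 on knockout saline, and 8.55, 8.14 and 8.13 on knockout bleomycin. Wild type bleomycin arrays were below wild type saline arrays, and knockout bleomycin replicate 1 stayed at the level of its saline group. The difference was -0.34 ± 0.11 in wild type (adjusted p = 0.0392) and -0.24 ± 0.11 in knockout lung (adjusted p = 0.294). The wild type call was lost by leaving out wild type saline replicate 1 or 2 (adjusted p = 0.129 and 0.0670), wild type bleomycin replicate 1 or 2 (0.143 and 0.0599) or any 1 of the knockout saline arrays (0.0519 to 0.0530). Its dimmer probe set had 0.02 in wild type lung (adjusted p = 0.964 over all probe sets), and with the mean of both the difference was -0.16 and the call was lost (adjusted p = 0.531). It also missed the threshold when all probe sets were tested together (adjusted p = 0.0539). Its relative Pfkfb4 ranged from 8.74 to 9.30 and was not called (-0.02 in wild type and 0.29 in knockout lung, adjusted p = 0.932 and 0.233).

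From aldolase to enolase, Aldoc, Tpi1, Pgk1 and Pgam1 rose in wild type lung, and Aldoa and Eno2 were not called. Aldoc, the aldolase best known from brain, read 7.25, 7.32 and 7.16 on the wild type saline arrays, 7.74, 7.82 and 7.92 on wild type bleomycin, 7.40, 7.35 and 7.37 on knockout saline, and 7.79, 7.84 and 7.77 on knockout bleomycin. In each genotype all bleomycin arrays were above all saline arrays. Aldoc rose 1.5-fold in wild type (0.58 ± 0.07, adjusted p = 8.57e-05) and 1.34-fold in knockout lung (0.42 ± 0.07, adjusted p = 0.00893). The difference between the responses was -0.16 ± 0.10 (95% interval -0.39 to 0.07, adjusted p = 0.403). The call in the knockout was lost with the mean of both Aldoc probe sets in place of the brighter (adjusted p = 0.0825). Aldoa, the aldolase of muscle and most tissues, ranged from 11.03 to 11.41 and was not called, at 0.19 in wild type (adjusted p = 0.0862) and 0.04 in knockout lung (adjusted p = 0.859). Of its 5 probe sets, 1 that was not the brightest was called higher in wild type lung (0.26, adjusted p = 0.0409 over all probe sets). Tpi1, which converts the triose phosphates, read 10.24, 10.46 and 10.24 on the wild type saline arrays, 10.70, 10.52 and 10.61 on wild type bleomycin, 10.18, 10.24 and 10.30 on knockout saline, and 10.36, 10.27 and 10.41 on knockout bleomycin. Its wild type groups did not overlap. Tpi1 rose 1.23-fold in wild type lung (0.29 ± 0.08, adjusted p = 0.0196) and had 0.11 ± 0.08 in knockout lung (adjusted p = 0.562). The call of Tpi1 was lost when wild type saline replicate 1 or 3 was left out (adjusted p = 0.0771 and 0.0657), or wild type bleomycin replicate 1 or 3 (0.0724 and 0.0502).

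Pgk1, the phosphoglycerate kinase that yields the first ATP of the pathway, read 10.48, 10.45 and 10.44 on the wild type saline arrays, 10.996, 10.86 and 10.87 on wild type bleomycin, 10.48, 10.41 and 10.43 on knockout saline, and 10.48, 10.52 and 10.59 on knockout bleomycin. The wild type bleomycin arrays stood above all 9 others, and the knockout bleomycin arrays were just above their saline arrays. Pgk1 rose 1.37-fold in wild type lung (0.45 ± 0.07, adjusted p = 0.000352), against 0.09 ± 0.07 in knockout lung (adjusted p = 0.550). The difference between the responses was -0.36 ± 0.10 (adjusted p = 0.0511). Pgam1, the phosphoglycerate mutase of non-muscle tissue, read 8.79, 8.83 and 8.70 on the wild type saline arrays, 9.52, 9.29 and 9.45 on wild type bleomycin, 8.70, 8.67 and 8.76 on knockout saline, and 8.94, 8.88 and 8.96 on knockout bleomycin. Again the wild type bleomycin arrays were above all others. Pgam1 rose 1.56-fold in wild type lung (0.64 ± 0.08, adjusted p = 6.15e-05) and had 0.22 ± 0.08 in knockout lung (adjusted p = 0.156). The responses of Pgam1 differed by -0.42 ± 0.11 (adjusted p = 0.0448). Among left-out arrays, that call was lost without each of 10 in turn, at an adjusted p from 0.0600 to 0.0998. It was kept without wild type saline replicate 2 or wild type bleomycin replicate 2. Over all 21 alternative fits it was lost in 14.

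Eno2, the enolase named for neurons, was dim and read 4.33, 4.11 and 4.09 on the wild type saline arrays, 4.75, 4.43 and 4.42 on wild type bleomycin, 3.76, 3.95 and 3.93 on knockout saline, and 3.80, 4.09 and 4.28 on knockout bleomycin. Its wild type bleomycin arrays were the highest of the 4 groups. The difference in wild type lung was 0.35 ± 0.13 and did not pass (adjusted p = 0.0570), with 0.17 ± 0.13 in knockout lung (adjusted p = 0.528).

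At the step from pyruvate to lactate the isozymes moved in opposite directions in wild type lung. Ldha encodes the subunit of lactate dehydrogenase that favours lactate formation and is a known HIF target, and Ldhb encodes the subunit of heart and oxidative tissue. Ldha read 10.73, 10.73 and 10.68 on the wild type saline arrays, 11.28, 11.12 and 11.23 on wild type bleomycin, 10.58, 10.58 and 10.50 on knockout saline, and 10.81, 10.86 and 10.95 on knockout bleomycin. In both genotypes the bleomycin arrays were above the saline arrays. Ldha rose 1.41-fold in wild type (0.50 ± 0.07, adjusted p = 0.000253) and 1.25-fold in knockout lung (0.32 ± 0.07, adjusted p = 0.0331), and the difference between the responses was -0.18 ± 0.10 (95% interval -0.40 to 0.05, adjusted p = 0.341). The knockout call of Ldha was lost without knockout saline replicate 1, 2 or 3 (adjusted p = 0.0880, 0.105 and 0.120) or knockout bleomycin replicate 2 or 3 (0.0848 and 0.125). Over all 21 alternative fits it was lost in 9.

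Ldhb read 10.81, 10.94 and 10.93 on the wild type saline arrays, 9.51, 10.03 and 10.01 on wild type bleomycin, 10.78, 10.997 and 11.001 on knockout saline, and 10.97, 10.53 and 10.65 on knockout bleomycin. The wild type bleomycin arrays lay below all 9 others, which had their lowest value at 10.53. Ldhb fell to 0.484 of its saline level in wild type lung (-1.05 ± 0.14, adjusted p = 0.000151) and had -0.21 ± 0.14 in knockout lung (adjusted p = 0.488). All 4 of its probe sets were called lower in wild type lung, between -1.10 and -1.05. The difference between the responses was 0.84 ± 0.20 (adjusted p = 0.0344). That call was lost without any 1 of the wild type saline arrays (adjusted p = 0.0578, 0.0618 and 0.0621 for replicates 1, 2 and 3), any 1 of the knockout saline arrays (0.0907, 0.0618 and 0.0573) or knockout bleomycin replicate 1 (0.0822). Over all 21 alternative fits it was lost in 9.

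Heart muscle genes fell in wild type lung together with Ldhb. All 12 genes of the cardiac list were called lower there, with a median of -2.00. In knockout lung, where Ldhb was not called, all 12 were also below 0 with an unadjusted p under 0.05 and 1 was called (median -1.22). The mean of the list was 8.82, 8.83 and 9.41 on wild type saline arrays, 6.82, 6.81 and 7.51 on wild type bleomycin, 8.88, 9.57 and 9.51 on knockout saline, and 6.86, 8.05 and 9.22 on knockout bleomycin. For replicates 1, 2 and 3, Ldhb read 9.51, 10.03 and 10.01 on wild type bleomycin and 10.97, 10.53 and 10.65 on knockout bleomycin arrays. Epithelial lists fell with Ldhb in wild type lung as well. Of 6 alveolar type 2 markers 4 fell (median -0.50) and of 6 airway markers 5 fell (median -0.81), and 0 of either list were called in knockout lung by limma, where 2 and 0 had an unadjusted p under 0.05 (medians 0.10 and -0.18). The type 2 mean lay between 12.80 and 12.82 on wild type saline arrays and between 12.69 and 12.76 on knockout saline arrays. It was 11.92, 12.57 and 12.54 on wild type bleomycin arrays and 12.96, 12.82 and 12.87 on knockout bleomycin arrays, for replicates 1, 2 and 3. For replicates 1, 2 and 3, the airway mean was 10.17, 10.55 and 10.71 on wild type bleomycin and 11.09, 11.03 and 11.14 on knockout bleomycin arrays. The airway mean lay between 11.13 and 11.33, 10.17 and 10.71, 11.15 and 11.36, and 11.03 and 11.14 on wild type saline, wild type bleomycin, knockout saline and knockout bleomycin arrays. The part of heart tissue, type 2 cells and airway cells in the falls of Ldhb, Pfkm and, given below, Eno3 and Pgam2 was not tested.

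Lactate carriers rose with Ldha in wild type lung. Slc16a1 encodes MCT1, which moves lactate in or out of cells. It read 8.68, 8.89 and 8.76 on the wild type saline arrays, 9.28, 9.16 and 9.24 on wild type bleomycin, 8.69, 8.58 and 8.72 on knockout saline, and 8.87, 8.77 and 8.79 on knockout bleomycin. Wild type bleomycin arrays were above all others. Slc16a1 rose 1.37-fold in wild type lung (0.45 ± 0.08, adjusted p = 0.000843) and had 0.15 ± 0.08 in knockout lung (adjusted p = 0.352). Slc16a3 encodes MCT4, the exporter of glycolytic cells. It read 5.87, 5.74 and 5.65 on the wild type saline arrays, 6.51, 5.88 and 6.12 on wild type bleomycin, 5.84, 5.87 and 6.06 on knockout saline, and 5.88, 5.80 and 5.94 on knockout bleomycin. The wild type groups nearly touched (5.87 and 5.88) without overlapping, and bleomycin replicate 1 was the highest. Slc16a3 rose 1.34-fold (0.42 ± 0.13, adjusted p = 0.0314), with -0.05 ± 0.13 in knockout lung (adjusted p = 0.893). Its call was lost by leaving out wild type saline replicate 2 or 3 (adjusted p = 0.0694 and 0.0948) or wild type bleomycin replicate 1 or 3 (0.113 and 0.0551).

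Pyruvate dehydrogenase kinases, which keep pyruvate out of the mitochondrial cycle, were not called with bleomycin in either genotype by their brightest probe sets. Pdk4, the isozyme induced by fasting, read 7.09, 7.48 and 6.94 on the wild type saline arrays, 6.93, 7.22 and 7.08 on wild type bleomycin, 7.47, 6.87 and 6.77 on knockout saline, and 6.18, 5.92 and 6.89 on knockout bleomycin. The knockout bleomycin arrays were the lowest group, with replicate 3 overlapping the knockout saline range. The differences were -0.10 ± 0.24 in wild type (adjusted p = 0.798) and -0.71 ± 0.24 in knockout lung (adjusted p = 0.129). Pdk1, the HIF-induced isozyme, ranged from 7.57 to 8.15 and had -0.16 in wild type and -0.27 in knockout lung (adjusted p = 0.252 and 0.156). All 4 of its probe sets were below 0 in wild type lung, and 1 of them was called lower (-0.50, adjusted p = 0.00484 over all probe sets).

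**Figure D2:**
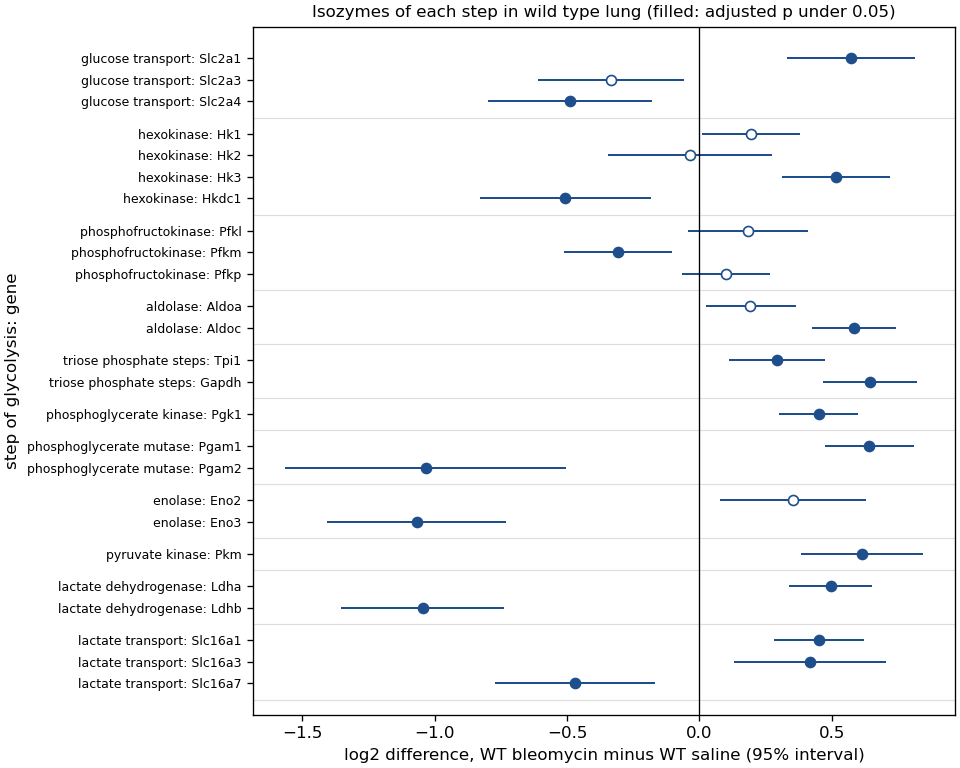
Log2 difference between wild type bleomycin and saline lungs (horizontal axis) for the isozymes of each step of glycolysis and of glucose and lactate transport (vertical axis). Points are limma estimates with 95% intervals from 3 arrays per group, filled at an adjusted p under 0.05. At the mutase, enolase and lactate dehydrogenase steps the muscle or heart isozyme (Pgam2, Eno3, Ldhb) is near -1, while Pgam1 and Ldha are called higher and Eno2 is not called. Of other isozymes used in muscle, Pfkm is called lower at -0.31, and Hk2 (-0.04) and Aldoa (0.19) are not called.

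The rest of the pathway was read from a separate list of 30 measured glycolysis and pyruvate genes, of which 5 rose and 7 fell in wild type lung and 1 fell in knockout lung. That is 40.0% called in wild type lung, against 27.7% of all genes, and 3.33% in knockout lung, against 3.26%, which is the background share. Their median was -0.09 and 0.02. Gapdh, of the step before Pgk1, rose by 0.64 ± 0.08 on the log2 scale (adjusted p = 9.19e-05); its brightest probe set is a control set of the array design. Pkm, the pyruvate kinase of most tissues, rose by 0.61 ± 0.11 (adjusted p = 0.000869), and Bpgm, which makes 2,3-bisphosphoglycerate, rose by 0.74 ± 0.10 (adjusted p = 0.000138). In wild type lung each step from aldolase to pyruvate kinase that was measured, except enolase, had at least 1 isozyme called higher. The responses of the 2 genotypes differed for Gapdh (-0.46, adjusted p = 0.0417) and Bpgm (-0.69, adjusted p = 0.0172). That is 6.67% of this list, against 5.02% of all genes.

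The falls in that list were in other isozymes. Eno3, the muscle enolase, read 8.17, 8.45 and 8.12 on the wild type saline arrays, 7.04, 7.19 and 7.30 on wild type bleomycin, 8.24, 8.55 and 8.61 on knockout saline, and 7.52, 7.58 and 8.13 on knockout bleomycin. Its bleomycin arrays were below its saline arrays in each genotype. Eno3 had -1.07 ± 0.16 in wild type (adjusted p = 0.000255) and -0.73 ± 0.16 in knockout lung (adjusted p = 0.0260). Pdk2, the widespread pyruvate dehydrogenase kinase, had -0.62 ± 0.09 in wild type lung (adjusted p = 0.000243). Pgam2, the muscle mutase, was singled out after its values were seen, to complete the steps: it had -1.03 ± 0.25 (adjusted p = 0.00678). Slc2a4 and Slc16a7 are plotted among the isozymes for the same reason. Of 8 measured pentose phosphate genes, the branch that makes NADPH, 2 rose in wild type lung, Pgd (0.78, adjusted p = 0.000360) and Taldo1 (0.22, adjusted p = 0.0317), 2 fell, H6pd (-0.40, adjusted p = 0.0168) and Rpia (-0.27, adjusted p = 0.0349), and 0 were called in knockout lung, where 1 had an unadjusted p under 0.05 (50.0% called in wild type lung).

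The oxygen-sensing genes also split. Hif1a encodes HIF-1 alpha, the subunit behind most glycolytic HIF targets, which is regulated mainly through its protein. It read 10.28, 10.27 and 10.22 on the wild type saline arrays, 11.09, 10.92 and 10.85 on wild type bleomycin, 10.19, 10.21 and 10.20 on knockout saline, and 10.18, 10.40 and 10.44 on knockout bleomycin. The wild type bleomycin arrays were above all 9 others, and knockout bleomycin replicate 1 lay below its saline arrays while replicates 2 and 3 lay above them. Hif1a rose 1.62-fold in wild type lung (0.70 ± 0.09, adjusted p = 7.05e-05) and had 0.14 ± 0.09 in knockout lung (adjusted p = 0.427). The responses differed by -0.55 ± 0.12 (adjusted p = 0.0238). That call was lost without knockout saline replicate 1, 2 or 3 (adjusted p = 0.0578, 0.0587 and 0.0516) or knockout bleomycin replicate 1 (0.0574). Of its 4 probe sets, 3 were called higher in wild type lung and the dimmest had -0.10 (adjusted p = 0.631 over all probe sets). For the difference between the responses, 3 of the 4 were below 0 and 1 was called lower.

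Epas1 encodes HIF-2 alpha. It read 13.54, 13.35 and 13.49 on the wild type saline arrays, 13.07, 13.27 and 13.20 on wild type bleomycin, 13.47, 13.51 and 13.49 on knockout saline, and 13.30, 13.32 and 13.20 on knockout bleomycin. In both genotypes the bleomycin arrays lay below the saline arrays. Epas1 fell to 0.822 of its saline level in wild type lung (-0.28 ± 0.08, adjusted p = 0.0168), with -0.22 ± 0.08 in knockout lung (adjusted p = 0.160) and 0.06 ± 0.11 between the responses (95% interval -0.18 to 0.31, adjusted p = 0.788). Leaving out wild type saline replicate 1 (adjusted p = 0.0734) or wild type bleomycin replicate 1 (0.0681), or taking the mean of both probe sets (0.506), ended the wild type call. Of 11 vascular endothelium markers 7 fell in wild type lung, and their mean lay between 10.43 and 10.45 on wild type bleomycin arrays, against 10.81 to 11.04 on wild type saline, 10.94 to 11.03 on knockout saline and 10.57 to 10.93 on knockout bleomycin arrays. Of 6 alveolar type 2 markers 4 fell in wild type lung (median -0.50), and all 6 were above 0 in knockout lung with 0 called by limma and 2 at an unadjusted p under 0.05 (median 0.10). The part of endothelium and of type 2 cells in the Epas1 result was not tested. Hif3a, whose product can restrain the other subunits, ranged from 6.08 to 7.23 and was not called (-0.17 in wild type and 0.00 in knockout lung, adjusted p = 0.611 and 0.998). Its 6 probe sets disagreed in wild type lung: 4 were below 0, and of the other 2, 1 was called higher (0.25, adjusted p = 0.0326 over all probe sets).

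The prolyl hydroxylases moved in opposite directions. Egln1 encodes PHD2, the main enzyme that marks HIF-1 alpha, and read 9.52, 9.55 and 9.56 on the wild type saline arrays, 9.01, 9.12 and 9.11 on wild type bleomycin, 9.48, 9.54 and 9.56 on knockout saline, and 9.55, 9.22 and 9.27 on knockout bleomycin. Wild type bleomycin arrays were below all others, and knockout bleomycin replicate 1 stayed at the saline level. Egln1 fell to 0.725 of its saline level in wild type lung (-0.46 ± 0.09, adjusted p = 0.00146) and had -0.18 ± 0.09 in knockout lung (adjusted p = 0.296). Its dimmer probe set had 0.08 (adjusted p = 0.675 over all probe sets), and with the mean of both the call was lost (adjusted p = 0.114). Egln3 encodes PHD3, itself a HIF target, and was dim, at 4.81, 4.70 and 4.70 on the wild type saline arrays, 5.40, 5.29 and 5.10 on wild type bleomycin, 4.998, 4.82 and 4.80 on knockout saline, and 4.29, 4.94 and 4.91 on knockout bleomycin. Wild type bleomycin arrays were the highest, and knockout bleomycin replicate 1 was the lowest of all. Egln3 rose 1.44-fold in wild type lung (0.53 ± 0.15, adjusted p = 0.0169), a call that ended without wild type bleomycin replicate 1 (adjusted p = 0.0629), and had -0.16 ± 0.15 in knockout lung (adjusted p = 0.623). The difference between the responses was -0.69 ± 0.21 (adjusted p = 0.0754).

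Among the HIF targets, Ankrd37 and Ndrg1 had the largest rises. Ankrd37, an ankyrin repeat gene induced by HIF-1, read 6.33, 6.05 and 6.20 on the wild type saline arrays, 8.59, 8.31 and 8.21 on wild type bleomycin, 6.26, 6.17 and 6.29 on knockout saline, and 6.61, 6.73 and 7.17 on knockout bleomycin. All wild type bleomycin arrays exceeded all knockout bleomycin arrays, which in turn exceeded all 6 saline arrays. Ankrd37 rose 4.52-fold in wild type (2.18 ± 0.14, adjusted p = 7.15e-07) and 1.51-fold in knockout lung (0.60 ± 0.14, adjusted p = 0.0352), and the responses differed by -1.58 ± 0.20 (adjusted p = 0.00218). The knockout call did not hold without wild type bleomycin replicate 2 (adjusted p = 0.0520), knockout saline replicate 1, 2 or 3 (0.0995, 0.141 and 0.0849) or knockout bleomycin replicate 2 or 3 (0.0732 and 0.111). Over all 21 alternative fits it was lost in 8. Ndrg1, a stress and hypoxia gene that limits growth, read 8.60, 8.51 and 8.45 on the wild type saline arrays, 9.96, 9.44 and 9.52 on wild type bleomycin, 8.61, 8.56 and 8.58 on knockout saline, and 8.37, 8.64 and 8.72 on knockout bleomycin. The wild type bleomycin arrays stood apart, and knockout bleomycin arrays lay on both sides of the knockout saline arrays. Ndrg1 rose 2.17-fold in wild type lung (1.12 ± 0.13, adjusted p = 3.65e-05) and had -0.01 ± 0.13 in knockout lung (95% interval -0.28 to 0.27, adjusted p = 0.984), a difference of -1.13 ± 0.18 (adjusted p = 0.00618). All 5 of its probe sets were called higher in wild type lung. The differences between the responses of Ankrd37 and Ndrg1 passed in every one of the 21 alternative fits, which include each array left out in turn.

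The other 3 of these targets were not called in any comparison by their brightest probe set. Bnip3, of mitochondrial clearance, ranged from 9.93 to 10.52 and had -0.27 in wild type and -0.21 in knockout lung (adjusted p = 0.0583 and 0.285). Adm, which encodes the vessel-dilating peptide adrenomedullin, ranged from 6.50 to 7.49, with 0.39 and 0.27 (adjusted p = 0.0874 and 0.423). The dimmer of its 2 probe sets was called higher in wild type lung (0.57, adjusted p = 0.0281 over all probe sets). P4ha1, a collagen prolyl hydroxylase, ranged from 8.10 to 8.71, with -0.34 and 0.05 (adjusted p = 0.129 and 0.913).

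**Figure D3:**
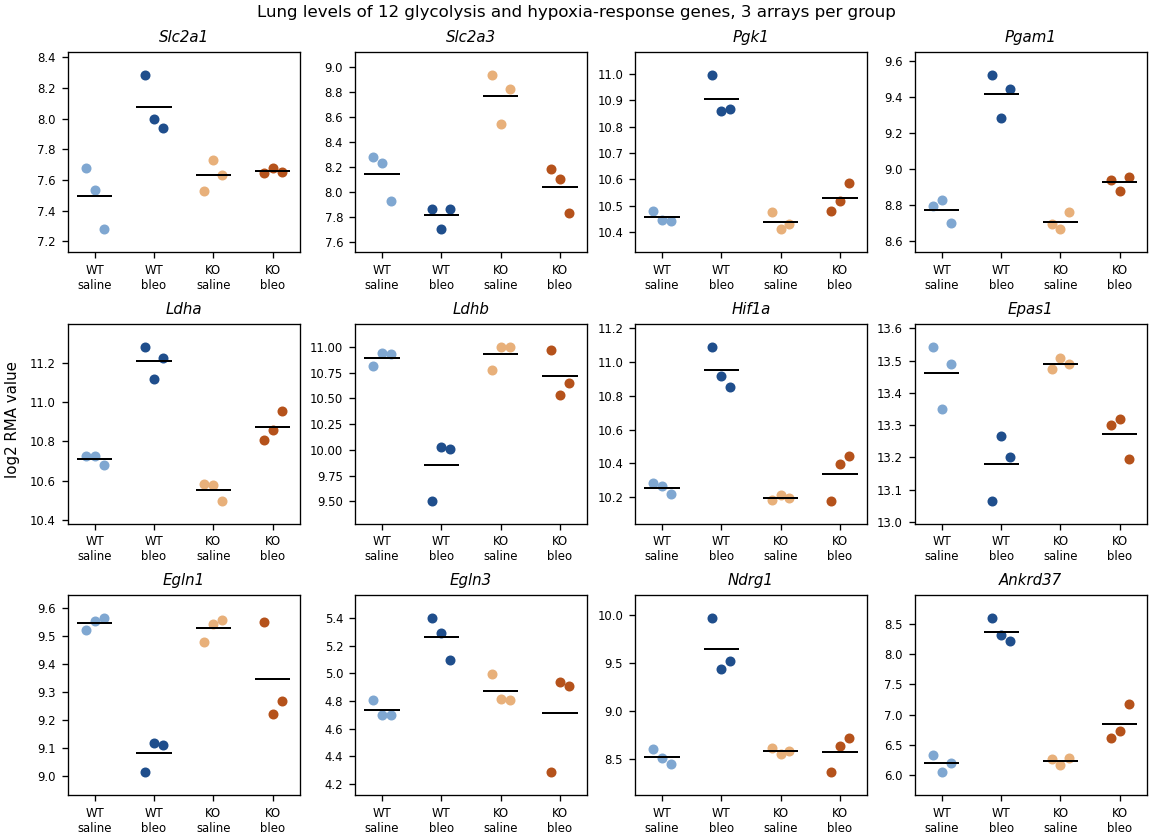
Log2 RMA value (vertical axis) on each of the 12 arrays for 12 of the genes, in wild type (WT) and knockout (KO) lungs after saline or bleomycin (bleo). Points are arrays and bars are means of 3. In Slc2a1, Pgk1, Pgam1, Ldha, Hif1a, Egln3, Ndrg1 and Ankrd37 the 3 wild type bleomycin arrays are the highest of the 12, and in Ldhb and Egln1 they are the lowest.

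Further HIF targets, a separate list of 39 measured genes, moved both ways in wild type lung: 10 rose and 6 fell (41.0% called, against 27.7% of all genes), and 0 were called in knockout lung by limma (against 3.26%), where 8 had an unadjusted p under 0.05. Their median was 0.03 in wild type and 0.07 in knockout lung. The smallest p-values in wild type lung were those of the collagen lysyl hydroxylase Plod1 (0.88, adjusted p = 7.51e-05), the repressor Bhlhe40 (0.81, adjusted p = 0.000127), Tmem45a (0.77, adjusted p = 0.000295), the small GTPase Rab20 (0.79, adjusted p = 0.00141) and the heme oxygenase Hmox1 (1.70, adjusted p = 0.00166). The responses of the 2 genotypes differed for Bhlhe40 (-0.70, adjusted p = 0.0237), Cp, which encodes ceruloplasmin (-0.69, adjusted p = 0.0326), and Tmem45a (-0.68, adjusted p = 0.0332). That is 7.69% of this list, against 5.02% of all genes. Vegfa, the classic angiogenic target, was named after its values were seen and was not called, at -0.41 in wild type and -0.28 in knockout lung (adjusted p = 0.0701 and 0.372). Of 13 other HIF regulators 2 were called in wild type lung (15.4%, below the share of all genes). Eloc, a subunit of the ligase that destroys HIF alpha, rose in wild type lung (0.23, adjusted p = 0.0275) and Cited2, a competitor of HIF-1 alpha for its coactivator, fell (-0.72, adjusted p = 0.00657).

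The responses of the genotypes were set side by side over the 18 genes called in wild type lung, since these contrasts share no arrays. Of the 13 that rose, the knockout difference was above 0 in 10 and below 0 in 3, with medians of 0.53 in wild type and 0.14 in knockout lung. All 5 that fell were below 0 in the knockout, with medians of -0.34 and -0.22. The first of each pair of medians comes from the contrast that chose the genes. The counts by sign were not made over all genes called in wild type lung, so they are not a trait of these genes. The test of the difference itself called 5 of the 32 genes, against 5.02% of all genes: Ankrd37, Ndrg1, Hif1a and Pgam1 with a lower value in the knockout, and Ldhb, with its smaller fall, with a higher one (2.03% of all genes had such a call). The higher share of all such calls moved from 40.4% to 50.7% with array medians subtracted and 51.2% with a repeated quantile normalization. For the other 27 genes, the differences were not called.

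Marker lists moved with these groups. The mean of 12 macrophage genes lay between 8.36 and 8.60 on wild type saline, 9.65 and 9.93 on wild type bleomycin, 8.51 and 8.62 on knockout saline, and 9.14 and 9.42 on knockout bleomycin arrays; 9 of the 12 rose in wild type and 6 in knockout lung. The mean of 8 proliferation genes lay between 5.34 and 5.98, 7.68 and 8.09, 5.20 and 5.48, and 5.88 and 6.38 in the same order, and 8 of 8 rose in wild type and 5 in knockout lung. On the macrophage list all knockout bleomycin arrays lay between the saline and the wild type bleomycin arrays, and on the proliferation list the same held except that a wild type saline array (5.98) lay within the knockout bleomycin range. The part of these cells in the glycolytic and HIF results was not tested.

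**Figure D4:**
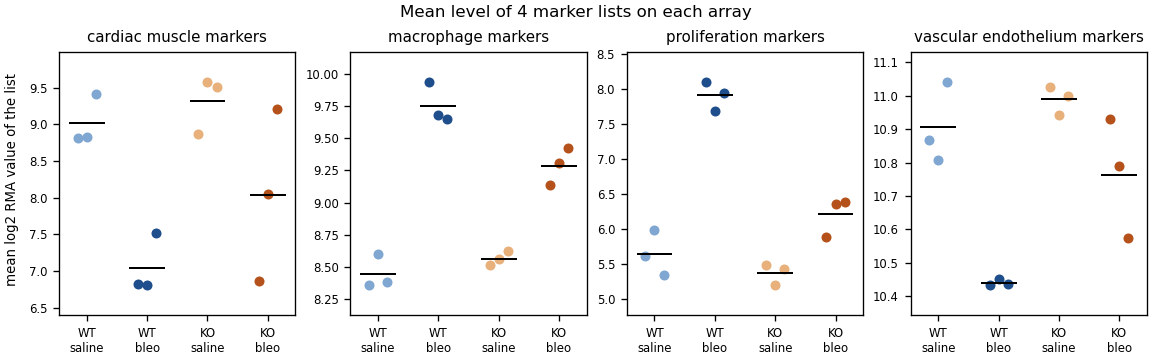
Mean log2 RMA value (vertical axis) of 4 marker lists on each array, by genotype and treatment. Points are arrays and bars are means of 3. By group mean, cardiac muscle and vascular endothelium markers are lowest in wild type bleomycin lungs, and macrophage and proliferation markers are highest there.

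Genotypes were then compared after the same treatment. After saline, 0 of the 32 genes were called by limma, against 0.489% of all genes, and 3 had an unadjusted p under 0.05. In 7 of the 32 the arrays did not overlap, against 16.7% of all genes. The largest of these differences was that of Slc2a3. After bleomycin, 12 of the 32 genes were called, against 15.4% of all genes, with a median over the 32 genes of -0.19 against 0.03 over all genes. Of these, 11 were lower in the knockout (7.89% of all genes were lower) and Ldhb was higher (7.52% were). Arrays did not overlap in 15 of the 32 genes, against 33.3% of all. This comparison uses the same wild type bleomycin arrays as the wild type response, so it does not stand beside it as separate support.

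In lower glycolysis, Pgk1, Pgam1 and Eno2 were all lower in knockout than in wild type bleomycin lungs. Their log2 differences were -0.38 ± 0.07 (adjusted p = 0.00290), -0.49 ± 0.08 (adjusted p = 0.00121) and -0.48 ± 0.13 (adjusted p = 0.0236). Tpi1 had -0.26 ± 0.08 and did not pass (adjusted p = 0.0542). The call of Eno2 was lost by leaving out wild type bleomycin replicate 1 (adjusted p = 0.0974) or knockout bleomycin replicate 1 or 2 (0.105 and 0.0519). Ldha (-0.33 ± 0.07, adjusted p = 0.00791) and Slc16a1 (-0.42 ± 0.08, adjusted p = 0.00339) were also lower, while Ldhb was 1.82-fold higher (0.87 ± 0.14, adjusted p = 0.00152). For each of the genes called here, the arrays of the genotypes did not overlap.

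At glucose entry, Slc2a1 was lower in the knockout (log2 difference -0.42 ± 0.11, adjusted p = 0.0247), a call lost by leaving out wild type bleomycin replicate 1 (adjusted p = 0.0995) or knockout bleomycin replicate 1, 2 or 3 (0.0745, 0.0554 and 0.0593). Slc2a3 had 0.23 ± 0.13 and was not called (adjusted p = 0.266). Pdk4 was 0.597 of the wild type level (-0.74 ± 0.24, adjusted p = 0.0488). Among left-out arrays, that call was lost without each of 9 in turn, at up to 0.174 without knockout bleomycin replicate 2. It was kept without wild type saline replicate 2, knockout saline replicate 1 or knockout bleomycin replicate 3. Over all 21 alternative fits it was lost in 17.

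In the oxygen-sensing group, the knockout was lower for Hif1a (-0.61 ± 0.09, adjusted p = 0.000556), Ndrg1 (-1.07 ± 0.13, adjusted p = 0.000200) and Ankrd37 (-1.54 ± 0.14, adjusted p = 3.25e-05). Egln3 was lower too (-0.55 ± 0.15, adjusted p = 0.0234), and that call did not hold without wild type bleomycin replicate 1 or 2 (adjusted p = 0.0865 and 0.0585) or knockout bleomycin replicate 1 (0.0604). Egln1 had 0.26 ± 0.09 (adjusted p = 0.0577) and Epas1 0.09 ± 0.08 (adjusted p = 0.481), neither of them called. Marker lists differed in both directions in this comparison. All 8 proliferation genes (median -1.67) and 5 of 12 macrophage genes (median -0.42) were lower in knockout bleomycin lungs. There 5 of 6 alveolar type 2 genes (median 0.56), 4 of 6 airway genes (0.59), 5 of 11 vascular endothelium genes (0.28) and 5 of 9 neutrophil genes (0.48) were higher, with 1 neutrophil gene lower. Fibroblast genes were split, with 2 of 9 higher and 3 lower. The part of these cells in the differences was not tested.

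**Figure D5:**
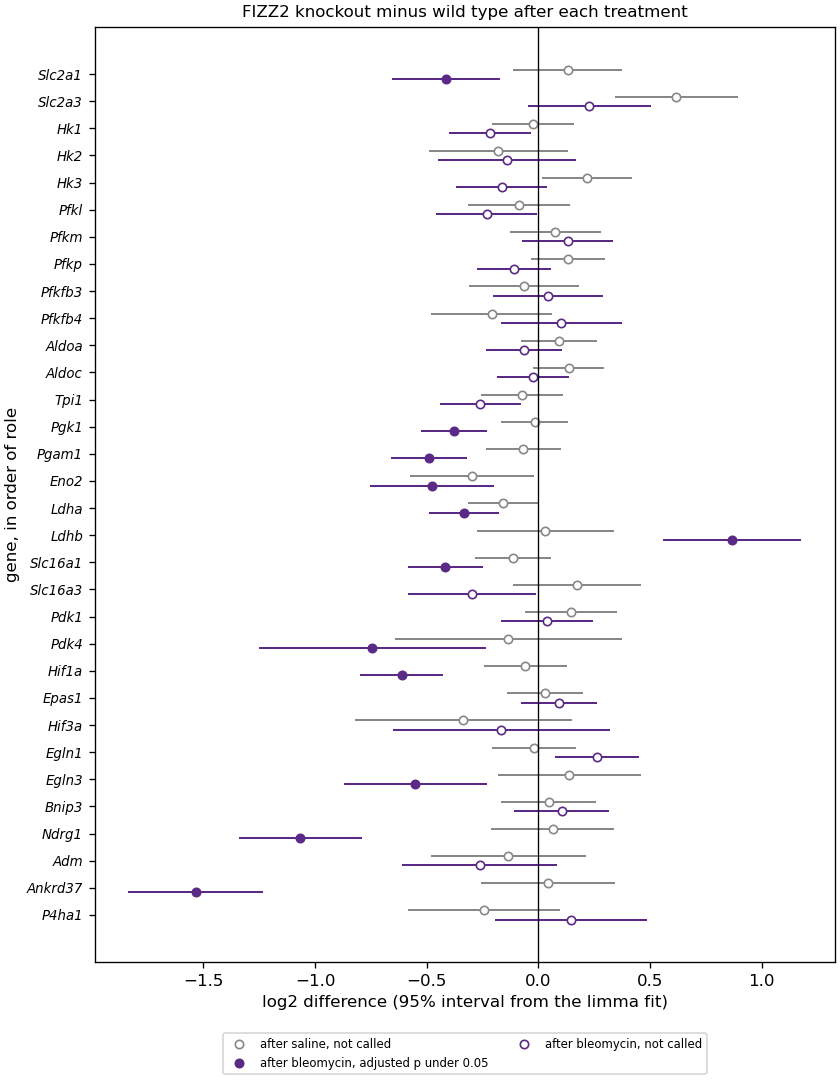
Log2 difference, FIZZ2 knockout minus wild type (horizontal axis), after saline and after bleomycin for each of the 32 genes in order of role (vertical axis). Points are limma estimates with 95% intervals over 3 arrays per group, filled at an adjusted p under 0.05. After saline 0 points are filled, and after bleomycin 12 are, of which Ldhb alone lies to the right of 0.

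In the separate lists, the same comparison after bleomycin called 8 of 30 other glycolysis and pyruvate genes (26.7%, against 15.4% of all genes), 4 of them lower: Bpgm (-0.64, adjusted p = 0.00105), Pkm (-0.48, adjusted p = 0.00895), Gapdh (-0.37, adjusted p = 0.00918) and the ADP-dependent glucokinase Adpgk (-0.40, adjusted p = 0.0404). The other 4 were higher, namely Pdk2 (0.61, adjusted p = 0.000718), Eno3 (0.56, adjusted p = 0.0279), Hkdc1, a hexokinase (0.50, adjusted p = 0.0405), and the gluconeogenic Fbp1 (0.32, adjusted p = 0.0199), which was dim. Of 39 further HIF targets, 10 were lower and 6 higher in the knockout (41.0% called). The lower ones were Angptl4, an inhibitor of lipoprotein lipase (-1.28, adjusted p = 0.00763), Hmox1, the growth restrainer Ddit4, Bhlhe40, Tmem45a, Plod1, Rab20, Cp, the endothelin gene Edn1 and the adenylate kinase Ak4 (-0.44, adjusted p = 0.0140). Those higher in the knockout were the glycogen regulator Ppp1r3c (0.73, adjusted p = 0.00570), the chemokine receptor Cxcr4, Zfp395, the transferrin receptor Tfrc, the lipoprotein receptor Vldlr and the glycogen synthase Gys1 (0.33, adjusted p = 0.0222). Ak4 was also the single gene of these lists called after saline, where it read 5.36 to 5.54 in knockout and 5.93 to 6.23 in wild type lungs (-0.65 ± 0.11, adjusted p = 0.0178). After saline 14 of the 39 further HIF targets had an unadjusted p under 0.05 by limma, against 1846 of 18194 genes tested. Cited2 was higher in knockout bleomycin lungs (0.62, adjusted p = 0.0263) and Pgd lower (-0.38, adjusted p = 0.0484).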

How the data were processed

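RNA of 12 whole-lung samples was hybridized to Affymetrix mouse expression arrays. The deposited values are log2 signals made by the authors with RMA, and affy and limma are named beside it, per the submitters' processing notes; versions, settings and a genome build are not given in the sources used here. The values hold no counts, so depth does not apply, and the number of arrays limits the precision. RMA equalizes array distributions, so a shift of all genes together cannot be seen.

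Of 45101 probe sets, 34958 are paired with 1 gene in GEO's platform annotation, 932 with several and 9211 with none. Symbols were updated by Entrez identifier (34754 matched). Each of 18194 genes was read from its brightest probe set (by the mean of the 12 arrays), with no filter on dim genes. Groups came from the sample titles. All 12 arrays entered 1 limma fit (lmFit and eBayes, limma 3.58.1 in R 4.3.3), with a mean per group, no block and 5 contrasts, on 8 residual and 4.86 prior degrees of freedom. Adjusted p-values are Benjamini-Hochberg over all genes tested. Dim denotes a mean near or under 5. Some chosen probe sets can bind related sequences by design (those of Aldoa, Tpi1, Adm, Slc2a3 and Ndrg1). The procedure was tested on simulated data in which 100 genes changed by 0.5 and 100 by 1 in wild type bleomycin lung. For the wild type response 56% and 95% of them were recovered. For the difference between the responses 18% and 75% were. Far fewer genes changed there than were called in these data.

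The 34 genes, the other lists and the markers were chosen with earlier results of these data known. Values on every array are given for genes called in any contrast and for Hk2; of the other lists, up to 5 genes with the smallest p in wild type lung and any called in another contrast are named. The alternatives left out genes whose mean was under 5, subtracted array medians, normalized quantiles again, set trend and robust in eBayes, averaged the probe sets of a gene, tested all probe sets, fitted each contrast on its own groups, weighted arrays, used the replicate number as a block, left out each array, and took 300 in place of 250 promoter bases. Replicate numbers were checked for pairing: of 18 same-numbered pairs of arrays, the correlation of deviations from group means was over 0.1 in 2 (range -0.297 to 0.203), against -0.226 to 0.358 in the 36 other pairs, so the numbers were not taken to pair samples. Promoters came from RefSeq (GRCm38.p6). Plots used Python 3.11.15 and matplotlib 3.10.9.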

Additional observations from a re-analysis of the deposited data

Results flagged for a closer look

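In 10 genes of these lists the response to bleomycin differed between the genotypes. The test was that of the difference itself (limma, adjusted p under 0.05 over all genes tested), which called 5.02% of all genes. Among the 32 genes described here 15.6% were called, namely Ankrd37 (-1.58, knockout minus wild type response on the log2 scale, adjusted p = 0.00218), Ndrg1 (-1.13, 0.00618), Hif1a (-0.55, 0.0238), Ldhb (0.84, 0.0344) and Pgam1 (-0.42, 0.0448). From the separate list of 30 glycolysis and pyruvate genes they were Bpgm (-0.69, 0.0172) and Gapdh (-0.46, 0.0417), or 6.67% of it. From the list of 39 further HIF targets they were Bhlhe40 (-0.70, 0.0237), Cp (-0.69, 0.0326) and Tmem45a (-0.68, 0.0332), or 7.69% of it. Of 13 other HIF regulators and 8 pentose phosphate genes 0 were called. In Ldhb the positive value is a smaller fall in the knockout. Of the 21 alternative fits, the call was lost in 5 for Hif1a, 9 for Ldhb and 14 for Pgam1, and in 0 for Ankrd37 and Ndrg1. Groups of 3 arrays were not screened for single outlying arrays.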

How the results depend on the processing

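No called value of the 32 genes changed direction in any of the 21 alternative fits, and calls were kept in all of them for 11 of 18 genes in wild type lung, 1 of 4 in knockout lung, 2 of 5 for the difference between the responses and 8 of 12 between genotypes after bleomycin. Where left-out arrays are named for a lost call, other alternatives ended some of these calls too. In wild type lung and between genotypes after bleomycin the settings other than left-out arrays kept the counts within 1.5 times of 18 and 12. In knockout lung the count of 4 became 2 with all probe sets tested. The count of 5 for the difference between the responses became 3 with all probe sets tested and 8 with array weights. After saline the count of 0 became 1 with eBayes trend and robust and 3 with array weights. With the replicate number as a block, which the arrays do not bear out as a pairing, 2 genes were called in knockout lung and 3 for the difference between the responses; the other counts stayed within 1.5 times. Leaving out 1 array at a time gave 13 to 19 called genes in wild type lung, 2 to 4 in knockout lung, 2 to 5 for the difference between the responses, 0 to 1 after saline and 8 to 13 after bleomycin. The knockout count was 2 without knockout saline replicate 1, 2 or 3 or knockout bleomycin replicate 2. The count of differing responses was 3 without wild type saline replicate 1 or 3, and 2 without knockout saline replicate 1, 2 or 3 or knockout bleomycin replicate 1. The share of promoters with the core was the same with 300 bases (27 of 29). Of 13 genes called in wild type lung that have several probe sets, another set was called in the same direction in 8 and in the opposite direction in 0. Another set was called in the same direction in 0 of 2 such genes in knockout lung. The count was 2 of 3 for the difference between the responses and 6 of 7 between genotypes after bleomycin. Hif3a, not called in wild type lung, had 1 called set of opposite sign there.

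The arrays measure RNA of whole lung at day 21, not enzyme activity, HIF protein or oxygen. Eno2, Egln3, Retnlb and Fbp1 are dim, where signal over background limits the size of a change. Gpi1 and Eno1 were not analysed here. With 3 arrays per group, a difference that missed the threshold does not show that the groups were alike.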
